A study of Mus musculus with 5 samples.

Results

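The genes described here are the transcription factors Creb1, Crem and Atf1 and the coactivators Crtc1, Crtc2, Crtc3, Crebbp and Ep300. They were taken by gene name from the deposited table, with transcripts summed per gene, and are 8 of its 21667 genes. All 8 passed the filter on low values. RNA came from the total dorsal epidermis of wildtype C57BL/6 male mice at postnatal day 49, whose backs were shaved. There were 2 libraries with 10 µM forskolin, a plant compound that activates adenylyl cyclase, 2 with 1.325 mM cAMP, and 1 labelled untreated, called the control. Both compounds were given topically 3 times over 5 days in DMSO and a lotion. Whether the control skin received that vehicle is not in the labels. Nor do they tie each library to its own animal, so the spread between libraries behind the p-values may be technical. That spread was taken mostly from a trend over all genes, and the lone control library adds none to it.

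Rising cAMP frees the catalytic subunits of protein kinase A, which phosphorylate CREB at a serine in its kinase-inducible domain. Phosphorylated CREB binds the acetyltransferases CBP (Crebbp) and p300 (Ep300), which open chromatin at its target genes. CREB, CREM and ATF1 are close relatives that bind the same DNA element as homodimers or heterodimers. The CRTC proteins are a further set of coactivators. They are held in the cytoplasm by salt-inducible kinases and move to the nucleus when cAMP blocks those kinases. Most of this control acts on the proteins, whereas the values here are transcript levels. In skin, cAMP signalling is best known from melanocytes, and the series asks about its part in the hair cycle.

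The make-up of the control library was unlike that of the treated ones. Mitochondrial genes took 50.7% and 45.6% of the listed values with forskolin, 43.1% and 58.0% with cAMP and 69.3% in the control. Nuclear genes other than rRNA and pseudogenes took 31.4% and 34.8% with forskolin, 38.0% and 25.9% with cAMP and 7.9% in the control. The median tested gene was 1.69 log2 units higher with forskolin and 1.66 higher with cAMP than in the control. After scaling by median-of-ratios size factors, which sets the typical gene to about the same level in each library, these medians were 0.18 and 0.16. Changes of the 8 genes against the control are given on both scales. Markers of basal keratinocytes (6 genes, Krt5 and Krt14 among them) were present in every library, summing to 5146 and 3967 CPM with forskolin, 4814 and 2162 with cAMP and 1041 in the control. After scaling 3 of these 6 basal markers were called lower with cAMP (7.78% of all tested genes) and 0 with forskolin (7.39%). Other cell types did not all follow the basal markers. The T cell and Langerhans cell markers had no calls after scaling. The 7 sebaceous gland markers summed to 1177 and 1838 CPM with forskolin, 3965 and 4435 with cAMP and 151.8 in the control. After scaling 6 of 7 were called higher with cAMP (14.8% of all tested genes). With forskolin 4 were called higher (14.4%) and 1 lower (7.39%). The 7 suprabasal markers summed to 2450 and 2218 CPM with forskolin, 2290 and 990.9 with cAMP and 1215 in the control. Flg was part of these sums but was left out of the calls. After scaling 4 of the other 6 were called lower with forskolin and 5 with cAMP. The part of these shifts in the results was not tested. In bulk epidermis, fewer cells of a type and less RNA per cell cannot be told apart.

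**Figure D1:**
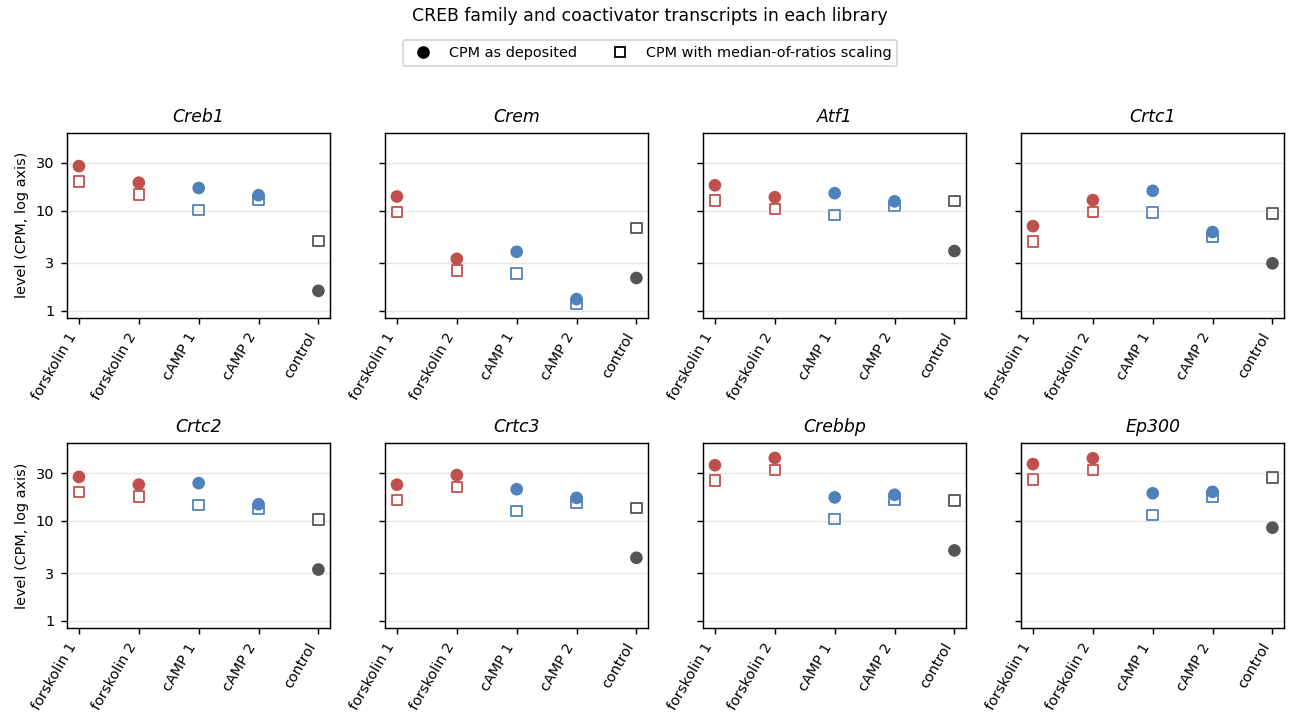
Level of each of the 8 genes in each library, in CPM on a log axis; filled circles are values as deposited and open squares values after median-of-ratios scaling. Creb1 lay below all 4 treated libraries in the control on both scales (1.58 CPM as deposited and 4.98 scaled), whereas the scaled control values of Atf1 (12.5) and Crtc1 (9.39) lay among the treated ones.

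As deposited, all 8 genes rose with forskolin and 6 of 8 with cAMP, Crem and Ep300 being the exceptions, by limma on log2(CPM + 1) with Benjamini-Hochberg adjusted p below 0.05. So did most genes: 66.3% of the 13764 tested were called higher with forskolin and 65.1% with cAMP. The median change of the 8 was 2.21 log2 units with forskolin, against 1.69 over all tested genes, and 1.59 with cAMP, against 1.66. After median-of-ratios scaling 1 of the 8, Creb1, was called higher with forskolin (14.4% of all tested genes) and none with cAMP (14.8% of all called higher and 7.78% lower), where 3 of the 8 and 36.6% of all tested genes had an unadjusted p below 0.05. Both forskolin libraries lay above the control for 8 of 8 genes as deposited (92.9% of all) and 4 of 8 after scaling (49.7% of all). Both cAMP libraries lay above it for 7 of 8 as deposited (91.0% of all), and after scaling for 2 of 8 (47.5% of all), with 3 of 8 below it (36.3% of all).

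**Figure D2:**
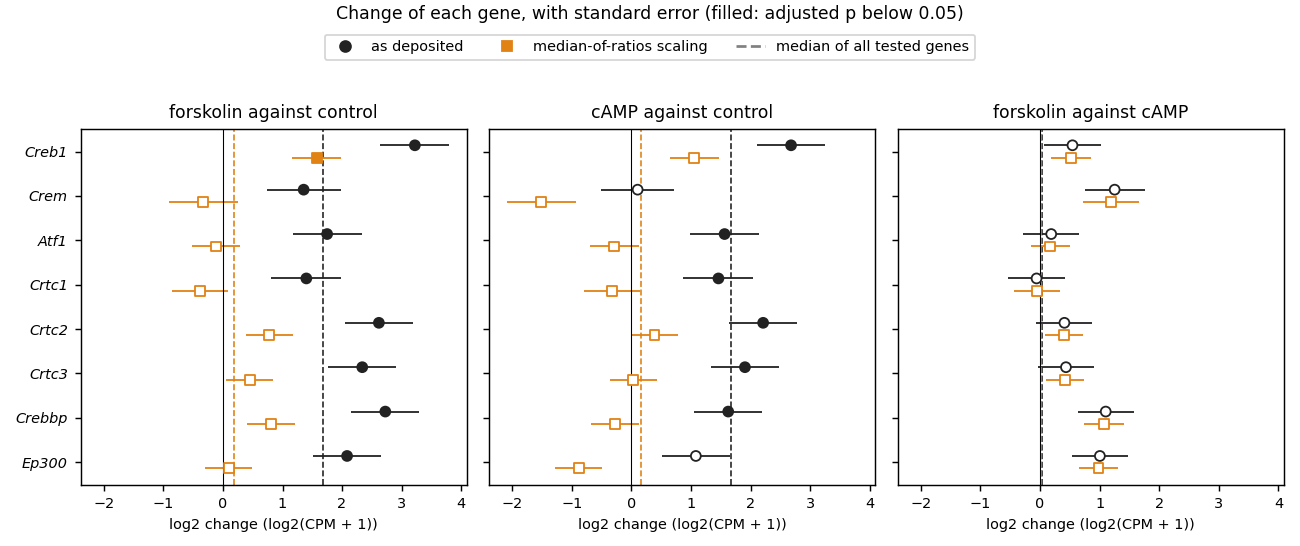
Log2 change of each gene, with bars of 1 standard error and filled symbols for limma adjusted p below 0.05, for forskolin against control, cAMP against control and forskolin against cAMP, as deposited and after median-of-ratios scaling; the median of all tested genes is marked. Creb1 with forskolin lay at 3.22 as deposited and 1.58 after scaling, and Crem with cAMP at 0.10 and -1.51.

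Creb1 was higher in every treated library than in the control, and in CPM it was the member that stood farthest above the typical gene, a place it did not hold per length. Creb1 (ENSMUSG00000025958, chromosome 1, 64532797 to 64604548, plus strand) encodes CREB itself. Its level was 27.9 and 19.0 CPM with forskolin, 16.8 and 14.3 CPM with cAMP and 1.58 CPM in the control. The forskolin libraries were the highest, the cAMP libraries came next, and no group overlapped another. Of all tested genes 92.9% lay above the control in both forskolin libraries and 91.0% in both cAMP libraries. Both forskolin libraries lay above both cAMP libraries for 16.7%. The control value corresponds to about 78 reads, with an exact 95% Poisson interval of 1.25 to 1.97 CPM that covers counting error only.

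Creb1 rose with forskolin, with a log2 change of 3.22 ± 0.58 (SE; limma adjusted p = 1.06e-06), which is 1.53 above the median gene. After median-of-ratios scaling its levels were 19.6 and 14.5 CPM with forskolin, 10.2 and 12.8 with cAMP and 4.98 in the control. On that scale it rose by 1.58 ± 0.41 with forskolin (limma adjusted p = 0.0121), the only call among the 8 on that scale. The scaled call was lost without forskolin 1 (1.37, limma adjusted p = 0.0524) and with no filter on low values (limma adjusted p = 0.0562). With cAMP, Creb1 rose by 2.68 ± 0.58 as deposited (limma adjusted p = 3.8e-05), and after scaling its change of 1.05 ± 0.41 did not pass (limma adjusted p = 0.0726).

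The reads assigned to Creb1 in the control were split over transcripts in another way than in the treated libraries. Creb1-001, the longest listed transcript at 8364 bases and protein-coding, held 27.9 and 15.5 CPM with forskolin, 16.5 and 14.2 with cAMP and 0.703 in the control. It made up 99.99% and 81.2% of the gene's level with forskolin, 97.9% and 99.7% with cAMP, and 44.5% in the control. The other 55.5% in the control was assigned to retained-intron transcripts, nearly all to Creb1-011, 660 bases long, which begins near the start of Creb1-001. Retained-intron transcripts held 3.42% of Creb1 in forskolin 2 and 0.673% in cAMP 1, and were listed near 0 in forskolin 1 and cAMP 2.

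In forskolin 2 all 10 listed Creb1 transcripts were above 3 reads, against 1 in forskolin 1, 3 in cAMP 1, 1 in cAMP 2 and 2 in the control. That library listed more transcripts of all genes at that depth as well, 52825 against 24444 to 42581 elsewhere. Over all nuclear genes the share of retained-intron transcripts was 7.41% and 6.54% with forskolin, 6.16% and 6.51% with cAMP and 6.84% in the control, so the control lay within the range of the treated libraries. The assignment of reads to transcripts is an estimate made upstream, and no test was run on it.

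**Figure D3:**
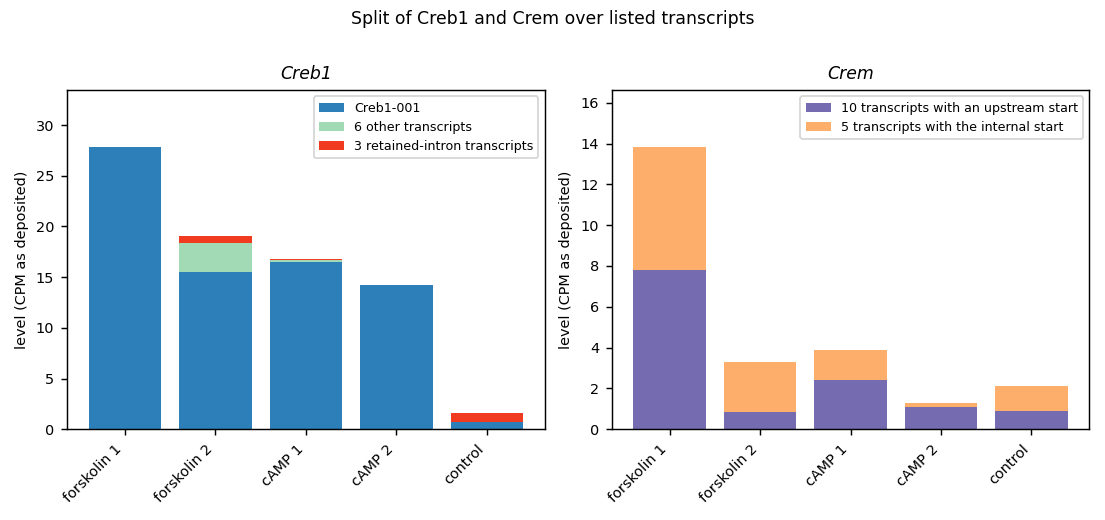
Levels of Creb1 and Crem in CPM as deposited, stacked by class of listed transcript, for each library. Creb1-001 fills most of the Creb1 bar in the 4 treated libraries and 44.5% of it in the control; Crem was highest in forskolin 1, at 13.8 CPM, with reads in both of its start classes.

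The contrast in Creb1 was smaller per length. In CPM 55.5% of its control level was assigned to Creb1-011, and so short a transcript weighs more per kilobase than in CPM. In CPM per kilobase of listed transcript, Creb1 stood at 3.33 and 4.50 with forskolin, 2.20 and 1.73 with cAMP and 1.41 in the control. As deposited, the order of the groups is the same as for CPM, and the control is closer to the treated libraries. The size factors were 0.317 for the control and 1.12 to 1.65 for the treated libraries. Divided by them, the control level of Creb1 per kilobase lies above every treated library. The transcript Creb1-001 alone went the other way. Its scaled level was 19.6 and 11.8 CPM with forskolin, 9.98 and 12.7 with cAMP and 2.22 in the control. Scaled retained-intron transcripts held 2.76 CPM in the control and at most 0.494 in a treated library. As deposited, the mean with forskolin over the control was 2.78 for Creb1 per kilobase, the seventh of the 8 genes. It was 8.04 for Crebbp, 7.62 for Crtc3 and 5.93 for Crtc2. For Atf1 it was 2.87, close to Creb1. Ep300 also had its control reads on shorter transcripts, with a mean listed length of 8.39 and 8.003 kb with forskolin, 9.04 and 6.16 kb with cAMP and 2.26 kb in the control, whereas Crebbp stayed between 10.3 and 10.8 kb in all 5 libraries. The median over 8670 genes was 2.06 kb in the control, below the 2.23 to 2.36 kb of the treated libraries.

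Atf1 moved with the typical gene. Atf1 (ENSMUSG00000023027, chromosome 15, 100227819 to 100261244, plus strand) encodes the activator most like CREB, with which it can form heterodimers. Its level was 17.9 and 13.6 CPM with forskolin, 14.9 and 12.4 with cAMP and 3.95 in the control. Treated libraries lay above the control, and the groups of treated libraries overlapped. Its rise of 1.75 ± 0.58 log2 units with forskolin (limma adjusted p = 0.00592) was 0.06 above the median gene, and its rise of 1.56 ± 0.58 with cAMP (limma adjusted p = 0.0138) lay below it (difference -0.10). After median-of-ratios scaling its changes were -0.11 and -0.29, and neither passed. The forskolin call as deposited was lost without forskolin 1 (limma adjusted p = 0.1).

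The ratio of Creb1 to Atf1 within a library does not depend on the scaling. In CPM, not per length, it was 1.55 and 1.40 with forskolin, 1.13 and 1.15 with cAMP and 0.40 in the control. On that measure every treated library lay above the control, and both forskolin libraries lay above both cAMP libraries. Per kilobase the pattern was not kept. That ratio was 0.224 and 0.431 with forskolin, 0.264 and 0.244 with cAMP and 0.320 in the control, which lay among the treated libraries. The ratio was not tested.

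The promoters of this pair are shown because Creb1 is the member called on both scales and Atf1 is its close relative, the 1 member of the 6 matched whose window holds the core motif. The windows run from 250 bases before to 50 after the start in RefSeq (GRCm38.p6), and capitals mark TGACG, the core of the cAMP response element, on either strand.
Creb1, chr1:64532554-64532853, plus strand: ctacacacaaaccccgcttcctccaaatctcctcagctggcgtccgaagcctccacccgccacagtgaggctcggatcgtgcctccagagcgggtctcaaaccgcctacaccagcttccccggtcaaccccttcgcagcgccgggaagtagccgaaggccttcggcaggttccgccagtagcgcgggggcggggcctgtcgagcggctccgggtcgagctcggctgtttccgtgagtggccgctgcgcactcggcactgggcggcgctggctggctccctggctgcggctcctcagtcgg
Atf1, chr15:100227609-100227908, plus strand: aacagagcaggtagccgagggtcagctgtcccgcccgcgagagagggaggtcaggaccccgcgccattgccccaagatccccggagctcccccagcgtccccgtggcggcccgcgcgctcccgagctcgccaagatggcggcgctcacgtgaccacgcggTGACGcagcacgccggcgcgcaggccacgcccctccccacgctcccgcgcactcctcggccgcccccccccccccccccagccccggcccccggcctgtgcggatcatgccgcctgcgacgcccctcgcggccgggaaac

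Promoters of 6 of the 8 genes were matched (Creb1, Atf1, Crtc1, Crtc3, Crebbp and Ep300). Windows on chromosome 18, where Crem lies, were left out before matching, and Crtc2 had no match. None held the full element TGACGTCA, a palindrome that reads alike on both strands and contains TGACG, and which 1.79% of 32851 mouse promoter windows outside chromosome 18 hold. TGACG, or CGTCA on the other strand, was found in 1 of the 6, that of Atf1, where it begins 90 bases before the start; 20.8% of all windows hold it. No match says only that these letters are not in this window. All 6 windows were rich in CG, with 30 to 49 CG dinucleotides against a median of 7 over all windows, and a GC content of 69.0% to 82.0% against a median of 52.7%.

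Crem differed between libraries of the same group more than the other factors did. Crem (ENSMUSG00000063889, chromosome 18, 3266048 to 3337589, minus strand) encodes activator and repressor isoforms, and transcripts from its internal promoter encode ICER, a short repressor that cAMP induces. Its level was 13.8 and 3.30 CPM with forskolin, 3.88 and 1.31 with cAMP and 2.12 in the control. Forskolin 1 stood apart at more than the sum of the other 4 libraries, and cAMP 2 lay below the control. The rise of Crem with forskolin was 1.35 ± 0.62 on the log2 scale (limma adjusted p = 0.0446), which is below the median gene (difference -0.33). Without forskolin 1 the change was 0.46. The call was lost with a pseudocount of 0.1 (limma adjusted p = 0.0644) and with no filter (limma adjusted p = 0.301). It was also lost in the fit on only the 2 groups compared (limma adjusted p = 0.0529).

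With cAMP the change of Crem was 0.10 ± 0.62 as deposited (limma adjusted p = 0.881), below the median gene (difference -1.56). Of all tested genes, 5.92% had as low a change or lower. After median-of-ratios scaling Crem stood at 9.74 and 2.51 CPM with forskolin, 2.35 and 1.17 with cAMP and 6.70 in the control. The control then lay above every library but forskolin 1. On that scale the change was -0.33 ± 0.58 with forskolin and -1.51 ± 0.58 with cAMP, and neither passed (limma adjusted p = 0.706 and 0.0685). The scaled change with cAMP passed in fits without forskolin 1 (limma adjusted p = 0.0324) or without forskolin 2 (limma adjusted p = 0.023).

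Crem transcripts were grouped by where they start. On the minus strand, 5 of the 15 listed begin between 3281078 and 3281769, the internal start, and 10 begin upstream, between 3299559 and 3337589. Internal-start transcripts held 6.03 and 2.45 CPM with forskolin, 1.47 and 0.207 with cAMP and 1.25 in the control. As a share of Crem this was 43.6% and 74.4%, 37.9% and 15.9%, and 59.0%. As deposited both forskolin libraries thus had more internal-start signal than the cAMP and control libraries, while the shares overlapped between groups. After median-of-ratios scaling the internal-start level was 4.24 and 1.87 CPM with forskolin, 0.891 and 0.186 with cAMP and 3.95 in the control, which then lay above forskolin 2.

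Upstream-start transcripts held 7.81 and 0.844 CPM with forskolin, 2.41 and 1.10 with cAMP and 0.871 in the control. The high Crem of forskolin 1 was therefore spread over both start classes. Its most abundant listed transcript was Crem-004, which starts upstream, at 4.67 CPM, followed by Crem-025 and Crem-024, with the internal start, at 2.81 and 2.48 CPM. In the control Crem-024 held 1.19 CPM and Crem-013, with an upstream start, 0.831 CPM. The 6 markers of dermal fibroblasts were also unequal between the forskolin libraries. They summed to 9.15 CPM in forskolin 1, with 3 of 6 at 1 CPM or more, and to 198.2 in forskolin 2, 106.9 and 260.1 with cAMP and 144.2 in the control; their part in the Crem result was not tested.

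The CRTC genes rose with the typical gene or somewhat above it. Crtc2 (ENSMUSG00000027936, chromosome 3, 90254163 to 90264125, plus strand), known for coactivating gluconeogenic genes in liver, was at 27.5 and 23.0 CPM with forskolin, 23.8 and 14.6 with cAMP and 3.26 in the control. Crtc3 (ENSMUSG00000030527, chromosome 7, 80586627 to 80688877, minus strand) was at 23.0 and 28.7 CPM with forskolin, 20.7 and 16.9 with cAMP and 4.27 in the control. Crtc1 (ENSMUSG00000003575, chromosome 8, 70382355 to 70439579, minus strand), best known from neurons, was at 7.01 and 12.8 CPM with forskolin, 15.8 and 6.12 with cAMP and 2.98 in the control. For all 3 the control was lowest as deposited. Crtc1 was the least even of them between libraries of 1 treatment, with 9.88 ± 4.06 CPM with forskolin and 11.0 ± 6.84 with cAMP (SD, n = 2 each).

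All 3 rose with forskolin. The log2 change was 2.62 ± 0.58 for Crtc2 (limma adjusted p = 5.23e-05) and 2.34 ± 0.57 for Crtc3 (limma adjusted p = 0.000267), 0.93 and 0.65 above the median gene. Crtc1 rose by 1.40 ± 0.59 (limma adjusted p = 0.0293), below the median gene (difference -0.29). With cAMP Crtc2 rose by 2.21, Crtc3 by 1.90 and Crtc1 by 1.46 (limma adjusted p = 0.00057, 0.0027 and 0.0235). After median-of-ratios scaling none passed in either comparison. The changes were then 0.78 with forskolin and 0.39 with cAMP for Crtc2, 0.45 and 0.03 for Crtc3, and -0.38 and -0.33 for Crtc1. The Crtc1 calls as deposited were also lost with a pseudocount of 5 (limma adjusted p = 0.0756 with forskolin and 0.0594 with cAMP) and with no filter (0.172 and 0.16). With forskolin the call was also lost without forskolin 1 (1.79, limma adjusted p = 0.0595) and without forskolin 2 (1.01, limma adjusted p = 0.263). With cAMP it was lost without cAMP 1 (0.84, limma adjusted p = 0.173), without forskolin 1 (limma adjusted p = 0.0606) and without forskolin 2 (limma adjusted p = 0.0621).

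Crebbp and Ep300 were higher in both forskolin libraries than in both cAMP libraries. Crebbp (ENSMUSG00000022521, chromosome 16, 4081328 to 4213407, minus strand) encodes CBP. It was at 35.9 and 42.5 CPM with forskolin, 17.1 and 18.2 with cAMP and 5.06 in the control. Ep300 (ENSMUSG00000055024, chromosome 15, 81585351 to 81652072, plus strand) encodes p300. It was at 36.9 and 42.2 CPM with forskolin, 18.9 and 19.5 with cAMP and 8.54 in the control. For both genes the groups did not overlap as deposited. Of all tested genes 16.7% had both forskolin libraries above both cAMP libraries.

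Both rose with forskolin, with a log2 change of 2.72 ± 0.57 for Crebbp (limma adjusted p = 2.49e-05) and of 2.08 ± 0.57 for Ep300 (limma adjusted p = 0.00103). With cAMP Crebbp rose by 1.62 ± 0.57 (limma adjusted p = 0.01), near the median gene, and Ep300 changed by 1.08 ± 0.57 without passing (limma adjusted p = 0.0844). After median-of-ratios scaling Crebbp had 25.3 and 32.3 CPM with forskolin, 10.4 and 16.3 with cAMP and 16.0 in the control, and Ep300 had 25.9 and 32.1, 11.4 and 17.4, and 27.0 CPM in the same order. The scaled control thus fell among the treated libraries for both genes, and no scaled change against the control passed. The scaled change of Crebbp was 0.80 with forskolin and -0.27 with cAMP. That of Ep300 was 0.10 with forskolin and -0.88 ± 0.40 with cAMP (limma adjusted p = 0.116).

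The ratio of Crebbp to Ep300 within a library was 0.974 and 1.01 with forskolin, 0.908 and 0.935 with cAMP and 0.592 in the control. The treated libraries stayed close to each other and the control lay below all 4. Per kilobase that ratio was 0.776 and 0.780 with forskolin, 0.776 and 0.532 with cAMP and 0.124 in the control, so Ep300 was the higher of the pair in every library and the control was again lowest. The ratio of Crtc2 to Crtc1 was less even, at 3.92 and 1.80 with forskolin, 1.51 and 2.39 with cAMP and 1.10 in the control. Crem over Creb1 was 0.497 and 0.173 with forskolin, 0.231 and 0.0915 with cAMP and 1.34 in the control. The control was highest on that measure. Per kilobase Crem over Creb1 was 4.03 and 0.972 with forskolin, 2.03 and 0.539 with cAMP and 2.09 in the control, so forskolin 1 was then highest and the control lay among the treated libraries.

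**Figure D4:**
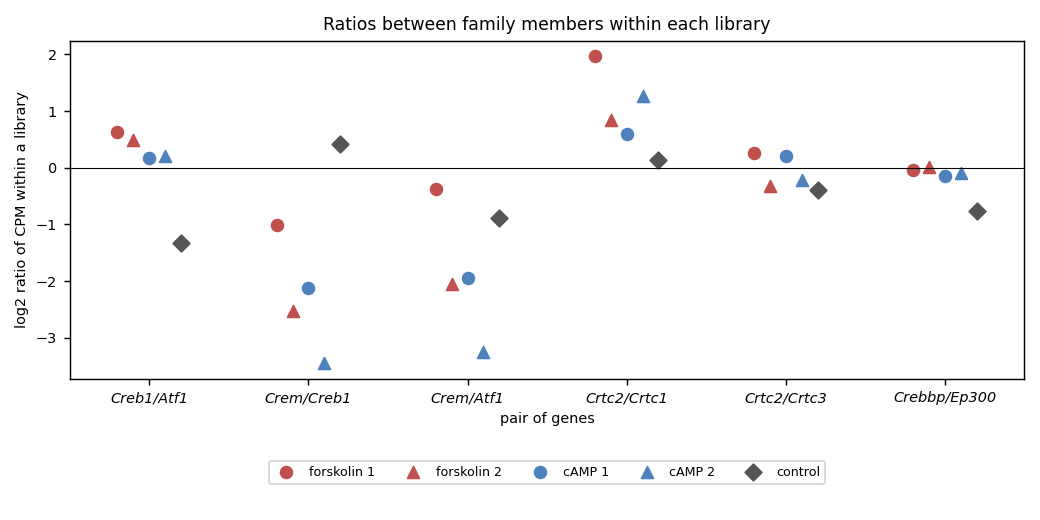
Ratios of CPM between pairs of the 8 genes within each library, on a log2 axis. Creb1 over Atf1 was 1.55 and 1.40 with forskolin, 1.13 and 1.15 with cAMP and 0.40 in the control; Crem over Creb1 was highest in the control, at 1.34. Per kilobase the control lay among the treated libraries for both of these pairs.

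Between the treatments, none of the 8 genes passed, as deposited or after scaling, where 0.378% and 0.349% of all tested genes did (limma adjusted p below 0.05). The doses were 10 µM forskolin and 1.325 mM cAMP. On both scales 3 of the 8, Crem, Crebbp and Ep300, had an unadjusted p below 0.05, against 6.81% of all tested genes as deposited and 11.2% after scaling. As deposited, Crebbp was 1.10 ± 0.47 log2 units higher with forskolin (95% interval 0.18 to 2.02, limma adjusted p = 0.557). Ep300 was 1.0 ± 0.47 higher (0.08 to 1.92, limma adjusted p = 0.68). Crem was 1.25 ± 0.50 higher (0.26 to 2.24, limma adjusted p = 0.488).

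The other 5 had intervals that included 0. For Creb1 the difference was 0.54 (-0.38 to 1.47), for Crtc3 0.43 (-0.49 to 1.36) and for Crtc2 0.41 (-0.52 to 1.33). For Atf1 it was 0.19 (-0.74 to 1.12) and for Crtc1 -0.06 (-1.0 to 0.89). After scaling the differences were 1.19 for Crem, 1.08 for Crebbp, 0.98 for Ep300, 0.52 for Creb1, 0.42 for Crtc3, 0.39 for Crtc2, 0.17 for Atf1 and -0.05 for Crtc1. The intervals are wide, and they do not show that the treatments act alike on these genes. Both forskolin libraries lay above both cAMP libraries for 4 of the 8 as deposited (16.7% of all tested genes) and for 6 of the 8 after scaling (21.2% of all). Crem passed in the scaled fit without forskolin 2 (1.99, limma adjusted p = 0.017), in which the high forskolin 1 is the only forskolin library.

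Levels can be set against each other only per length. By the median over the 4 treated libraries, in CPM per kilobase, Crtc2 was highest at 11.3, with Atf1 next at 9.40. Crem (4.42), Crtc3 (4.42) and Ep300 (3.78) followed, then Creb1 (2.77), Crebbp (2.55) and Crtc1 (1.88). Crtc2 and Atf1 held the top places in each of the 4 treated libraries. The ranges of neighbours in this order overlap in every case, so the order of neighbours is not settled.

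The pathway around the 8 genes was followed in 4 further lists. Of the regulators of CREB (subunits of protein kinase A, other kinases and phosphatases among them), 27 of 28 were tested. As deposited 24 were called higher with forskolin and 21 with cAMP, where 66.3% and 65.1% of all tested genes were. After scaling 2 were higher with forskolin (14.4% of all), and with cAMP 1 was higher (14.8%) and 1 lower (7.78%). The kinase Hipk2 was at 9.03 and 19.9 CPM with forskolin, 6.64 and 10.1 with cAMP and 0.605 in the control, and its scaled change with forskolin was 1.91 ± 0.53 (limma adjusted p = 0.0172). Prkar2b, a regulatory subunit of protein kinase A, was at 2.02 and 3.35 CPM with forskolin, 7.20 and 6.58 with cAMP and 0.0405 in the control, below the 0.0607 CPM that 3 reads make there. Its scaled change with cAMP was 2.43 ± 0.50 (limma adjusted p = 0.00247); that value depends on the pseudocount.

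Among known CREB target genes 30 of 35 were tested. As deposited 27 were called higher with forskolin and 20 with cAMP, where 66.3% and 65.1% of all tested genes were. After scaling 13 were higher and 1 lower with forskolin (14.4% and 7.39% of all tested genes). With cAMP 9 were higher and 1 lower (14.8% and 7.78%). Their median scaled change was 1.17 log2 units with forskolin and 0.83 with cAMP, against 0.18 and 0.16 over all tested genes. Per1, a clock gene, was at 108.8 and 108.2 CPM with forskolin, 70.1 and 39.3 with cAMP and 2.21 in the control, and its scaled change was 3.34 ± 0.37 with forskolin (limma adjusted p = 2.7e-05). Fosb, an immediate early gene, was at 60.1 and 21.2 CPM with forskolin, 24.2 and 7.58 with cAMP and 0.425 in the control.

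Between the treatments 2 of the 30 targets were called higher with forskolin on each scale. Of all tested genes 0.378% as deposited and 0.349% after scaling were called in either direction. Nr4a3, an orphan nuclear receptor, passed on both, at 43.0 and 11.1 CPM with forskolin and 4.61 and 1.93 with cAMP. Its difference was 2.51 ± 0.49 log2 units as deposited (limma adjusted p = 0.000617) and 2.42 ± 0.48 after scaling (limma adjusted p = 0.037). Like Crem, it was highest in forskolin 1.

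Of 15 relatives with a basic leucine zipper, 12 were tested, and 9 were called higher with each treatment as deposited. Of all tested genes 66.3% were called higher with forskolin and 65.1% with cAMP as deposited, and 14.4% and 14.8% after scaling. After scaling 1 of the relatives was called higher, with forskolin: Creb3l2, which encodes a membrane-bound factor, by 1.47 ± 0.48 (limma adjusted p = 0.0383). All 15 further acetyltransferases and related coactivators were tested. As deposited 14 were called higher with each treatment, and after scaling 1 was, with forskolin: Kat6a, by 1.14 ± 0.38 (limma adjusted p = 0.0426). Kat6a was at 41.6 and 50.03 CPM with forskolin, 27.7 and 21.8 with cAMP and 4.64 in the control, and Ncoa2 at 43.4 and 32.7, 18.2 and 19.5, and 4.88 CPM in the same order.

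The genes most like Creb1 over the 5 libraries were taken by the root mean square difference of log2(CPM + 1) after centring each gene. Genes with predicted, clone or pseudogene names were counted but not named. As deposited the nearest named genes were Usp6nl (0.06), Nrgn, Uvssa, Ubash3b and Smurf1, and 263 of 13763 genes lay within 0.25. After scaling they were Usp6nl (0.04), Desi2, Klf2, Serpinb1a and Amn1, with 346 within 0.25. The nearest of the other 7 genes was Crtc2 on both scales, at 0.28 and 0.34. For Crem the nearest were Sult1a1 (0.23), Ugt1a6b, Epb4.1l3, Fam221a and Epgn as deposited, and Fam221a, Epb4.1l3, Ggct, Slc24a3 and Lin54 after scaling. Only 1 gene lay within 0.25 of Crem as deposited, so its pattern was shared by fewer genes than that of Creb1. All genes compared share the depth and make-up of the same 5 libraries.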

How the data were processed

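RNA was measured in 5 libraries of mouse epidermis. The deposited table gives CPM per transcript, scaled to the library total by the authors with a small offset in place of 0, as read from the file headers and values. The tools named in the submitters' processing notes are STAR, Partek and bcl2fastq 2.17. Their roles, the genome build and the annotation are not given in the sources used here.

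Columns were matched to libraries by the number in the sample description. Transcripts were summed per gene identifier, 21667 genes in all, and 3 rows without an identifier were left out (at most 0.0679% of a library). If the offset stands for 0.0001 read, depth ran from 34200000 to 51700000 reads. Only 59.6% to 75.7% of low gene sums were then whole to within 0.1 read, so no count model was run.

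A gene was tested where 2 or more libraries had 1 CPM or more. The 13764 such genes were tested with limma 3.58.1 in R 4.3.3 on log2(CPM + 1). All 5 libraries and 3 groups entered 1 fit with an intensity trend and no covariates, with 2-sided tests and Benjamini-Hochberg adjustment over all tested genes at 0.05. Residual degrees of freedom were 2, against a prior of 360.2 as deposited and 15.7 after median-of-ratios scaling. A gene's spread therefore came almost wholly from the trend as deposited, and mostly so after scaling. The lone control library was assumed to vary like the treated ones. The same genes were refitted with values divided by size factors (median of ratios, 11512 genes), 0.317 for the control and 1.12 to 1.65 for the treated libraries. The fit was tested on simulated data. Those data did not hold the control's shift in make-up, so they do not bear on it. Transcript lengths came from GENCODE M21. It held all 52 transcripts of the 8 genes, 49 of them with the same ends. Promoters came from RefSeq (GRCm38.p6).

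The 8 genes and all lists were chosen with earlier results of these data known. The text names all 8 genes and, from each of 4 further lists, only genes among the 3 smallest p-values per comparison. Also named are the 5 genes with the smallest root mean square difference to Creb1 and to Crem over the 5 libraries. Genes with predicted, clone or pseudogene names were passed over in that choice. Alternatives were other scalings, pseudocounts, filters, empirical Bayes settings, fits on 2 groups, left-out libraries and a replicate block. Fits that leave out a library after median-of-ratios scaling, and the block after that scaling, were chosen after seeing the data.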

Additional observations from a re-analysis of the deposited data

How the results depend on the processing

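Scaling decided most calls against the control. With forskolin the 8 calls as deposited came to 1 after median-of-ratios scaling, 1 after scaling to nuclear genes, 1 after quantile normalization and 0 after median-of-ratios scaling with no filter. With cAMP the 6 calls came to 0 under each of these 4. Leaving out 1 library gave 5 to 7 calls with forskolin and 5 to 7 with cAMP as deposited, and 0 to 1 in both after median-of-ratios scaling. Between the treatments the count was 0, and 1 only after that scaling without forskolin 2. The calls over all genes with forskolin came to 9177 as deposited, 2997, 3076, 1902 and 1995 under the 4 scalings, and 5342 without forskolin 1. With cAMP they came to 9025, 3113, 3101, 2045 and 2359. Between the treatments they came to 52, to 16 with a pseudocount of 0.1, 0 with no filter on either scale, 33 with a filter of 10 CPM, and 10 to 71 with a library left out. The filter of 10 CPM left Crem untested.

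Under the 4 scalings in that order, changes with forskolin turned negative for Crem (-0.33, -0.22, -0.45 and -0.33) and Crtc1 (-0.38, -0.27, -0.44 and -0.38), and for Atf1 in all but nuclear scaling (-0.11, -0.17 and -0.11). With cAMP they did so for Crem (-1.51, -1.46, -1.60 and -1.51), Atf1 (-0.29, -0.23, -0.32 and -0.29), Crtc1 (-0.33, -0.27, -0.38 and -0.33), Crebbp (-0.27, -0.21, -0.29 and -0.27) and Ep300 (-0.88, -0.82, -0.86 and -0.88). The cause was not tested.

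With 1 library left out, the change of Crem with cAMP ran between -0.44 and 0.64 as deposited, and that of Crtc1 between the treatments between -0.68 and 0.56. Fits with a library left out after median-of-ratios scaling were chosen after seeing the data. With forskolin they gave -1.13 to 0.48 for Crem, -0.24 to 0.02 for Atf1, -0.81 to 0.04 for Crtc1 and -0.053 to 0.24 for Ep300. With cAMP they gave -1.83 to -1.20 for Crem, -0.42 to -0.15 for Atf1, -0.68 to 0.02 for Crtc1, -0.10 to 0.16 for Crtc3, -0.58 to 0.03 for Crebbp and -1.17 to -0.60 for Ep300. Between the treatments Crtc1 ran from -0.48 to 0.37, with 0.30 without cAMP 1.

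Same-numbered libraries did not deviate together (r = -0.05 as deposited and -0.07 scaled), so no pairing by number was seen. With a single difference per treatment, this cannot exclude a shared animal or day. A replicate block between the treatments called 0 of the 8 genes on both scales, and 55 of all genes against 52. Every comparison with the control rests on 1 library, in which nuclear genes took 7.9% of the listed values. Its depth, about 49400000 reads, was within the range of the others.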
